A study of Mus musculus with 11 samples.

Results

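Hippocampal RNA taken 6 h after insulin given through the nose was compared with RNA taken 15 min after it. The comparison took all gene rows of the deposited table in 5 of its 11 libraries, 3 at 6 h (replicates 1 to 3) and 2 at 15 min (replicates 1 and 3). Replicate 2 of the 15 min group was not analysed here. All animals were male C3-C57B1/6J mice, 2 to 3 months old and housed singly. Per the labels' protocols, both groups received 2.4 IU of insulin per nare, were anaesthetized with isoflurane at the end of their time, and gave total RNA for stranded libraries. The 3 saline libraries, which carry the time label 0 min, and the 3 libraries taken 1 h after insulin entered the fit for its spread and serve as reference levels only. The labels do not state that each library came from 1 animal, so each error and p-value reflects how far these libraries spread, which may be technical.

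Insulin binds a receptor tyrosine kinase that acts through PI3 kinase and AKT, and AKT keeps the FOXO transcription factors out of the nucleus. Cells that receive a growth factor, synaptic input or stress switch on immediate early genes within minutes, without new protein synthesis. Their short-lived transcripts, many of them for transcription factors such as those of the FOS, KLF and NR4A families, usually decay within hours. The series names lipid metabolism of the brain as its subject, so genes of lipid and energy metabolism are described beside the early genes.

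Values are log2 signals per gene as deposited, and a difference is the mean at 6 h minus the mean at 15 min. Of 27647 rows tested with limma, 2 had a Benjamini-Hochberg adjusted p under 0.05 (0.00723%), and both, Fos and Klf4, were lower at 6 h. No row was called higher at 6 h by limma. At an unadjusted p under 0.05 there were 3939 rows (14.2%), 3257 higher at 6 h (11.8%) and 682 lower (2.47%). That split moved with the scale of the libraries. Of the rows under that p, 82.7% were higher at 6 h in the deposited values. The share was 50.8% after cyclic loess normalization and 36.3% with equal medians. For equal medians, the medians of the 26631 rows with a value in every library were made equal. The medians over all values were equal already. At that p, 6.09% of all rows were higher and 5.9% lower after cyclic loess, and 4.96% and 8.72% with equal medians. List counts are read against the shares of the same scale. The median row lay 0.11 higher at 6 h in the deposited values, and the median of each list is stated as its distance from that row. Fos and Klf4 were the 2 genes called under each of the 3 scales.

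**Figure D1:**
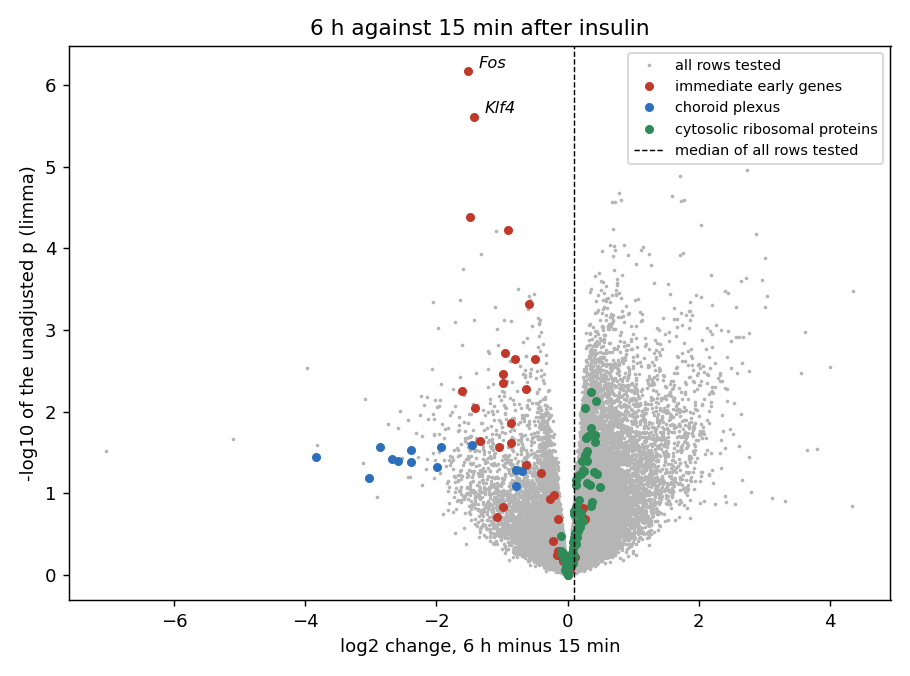
Log2 difference, 6 h minus 15 min (horizontal), against -log10 of the unadjusted limma p (vertical) for each of the 27647 rows tested, in grey, with immediate early genes in red, choroid plexus markers in blue and cytosolic ribosomal protein genes in green. Fos and Klf4 stand highest on the side of lower signal at 6 h, the choroid plexus markers all lie on that side, and the dashed line marks the median row at 0.11.

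Fos encodes the FOS subunit of the AP-1 transcription factor and is a common marker of recently active neurons (chromosome 12, 85473890 to 85477274 in GRCm38). Its log2 signal was 2.64 and 2.55 in the 15 min libraries and 0.90, 1.18 and 1.17 in the 6 h libraries. All 6 h libraries lay below both 15 min libraries. Fos fell by 1.52 on the log2 scale (SE 0.14), a 2.86-fold lower signal, with a limma adjusted p of 0.0186. The saline libraries held 1.00, 0.98 and 0.90, within the range of the 6 h libraries, and the 1 h libraries held 2.46, 2.47 and 2.02, closer to 15 min. Against saline the mean stood 1.64 higher at 15 min and 0.12 higher at 6 h, and these differences share the saline libraries.

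Klf4 encodes a zinc finger transcription factor known from stem cells, endothelium and inflammation (chromosome 4, 55527137 to 55532475). Its log2 signal was -0.27 and -0.14 at 15 min and -1.69, -1.48 and -1.72 at 6 h, again without overlap. Klf4 fell by 1.43 (SE 0.15), 2.69-fold, with a limma adjusted p of 0.0337. With saline the values were -1.98, -2.35 and -2.00, each below every 6 h library. At 1 h they were -0.21, 0.02 and -0.32, overlapping those at 15 min. The mean at 6 h stood 0.48 above saline and the mean at 15 min 1.91 above it. Its deviations within groups moved with those of the 18S ribosomal RNA row (Pearson r of 0.57 over 11 libraries, a description), whose part in the fall was not tested.

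Fos and Klf4 kept their direction in every setting tried, and their calls depended on the libraries in the fit. The adjusted p of Fos ran from 0.00193 to 0.189 over 24 alternative settings, with the call kept in 14, and that of Klf4 from 0.00801 to 0.325 over 23, with the call kept in 11. Fos lost its call without 6 h replicate 1, 2 or 3 (limma adjusted p of 0.0804, 0.0628 and 0.0998), without 15 min replicate 1 or 3 (0.0666 and 0.132), and without saline replicate 1 or 3 (0.073 and 0.0689). Klf4 lost its call without those libraries too (from 0.0628 to 0.213), and without 1 h replicate 1 or 2 (0.0792 and 0.0525).

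**Figure D2:**
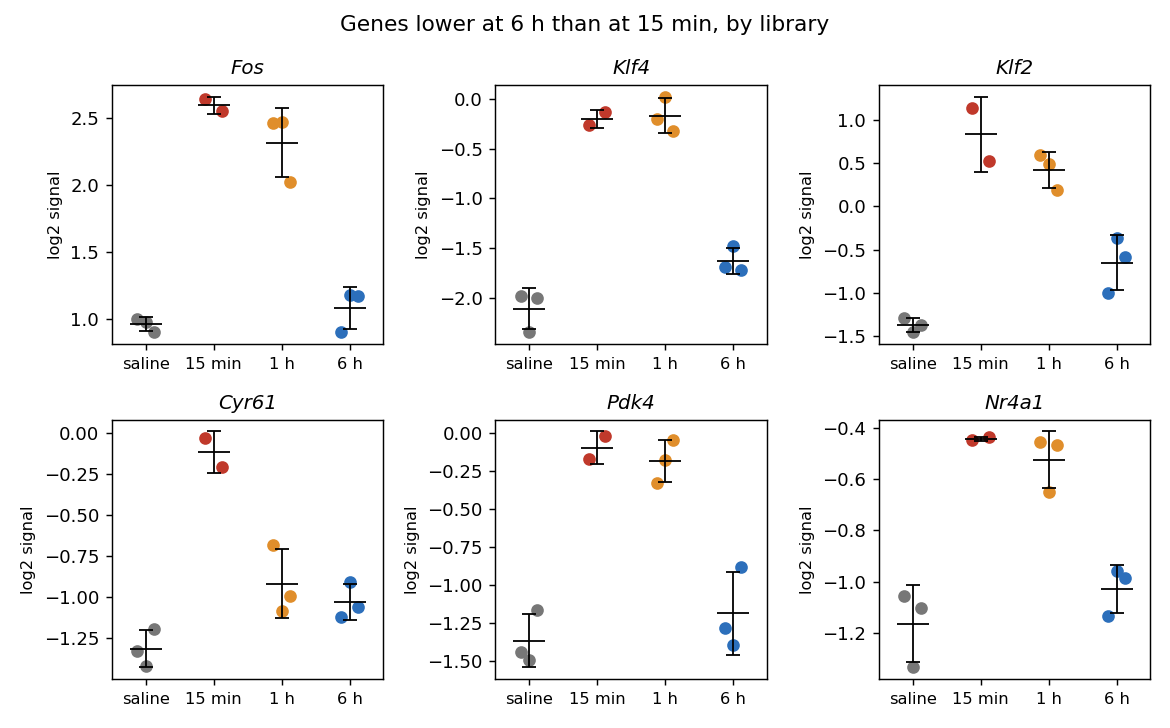
Log2 signal of Fos, Klf4, Klf2, Cyr61, Pdk4 and Nr4a1 (vertical) in each library of the 4 groups (horizontal), with a horizontal bar at each group mean and error bars of 1 SD (n = 2 at 15 min, n = 3 in the other groups). In each panel the 6 h libraries lie below both 15 min libraries, and of the 6 genes Fos and Klf4 passed the test.

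The sequences before the starts of 4 early genes are shown because Fos and Klf4 were the 2 calls, and Klf2 and Nr4a1 are the other early genes among the 5 rows whose signal was most like that of Fos. Pearson correlations with Fos were 0.963 for Klf4, 0.957 for Banp, 0.955 for Klf2, 0.939 for Nr4a1 and 0.932 for Pdk4, the 5 highest of 11910 rows, given as a description over libraries that share their groups. Each run is the 250 bases before the start in the RefSeq promoter table (GRCm38.p6), 5′ to 3′ along the gene. The windows are chr12:85473640-85473889 (plus strand) for Fos, chr4:55532476-55532725 (minus strand) for Klf4, chr8:72318812-72319061 (plus strand) for Klf2, and chr15:101266596-101266845 (plus strand) for Nr4a1, at a start inside that gene's annotated span. Capitals mark TGACG or its reverse complement CGTCA, the core of the cAMP response element that CREB binds.
Fos: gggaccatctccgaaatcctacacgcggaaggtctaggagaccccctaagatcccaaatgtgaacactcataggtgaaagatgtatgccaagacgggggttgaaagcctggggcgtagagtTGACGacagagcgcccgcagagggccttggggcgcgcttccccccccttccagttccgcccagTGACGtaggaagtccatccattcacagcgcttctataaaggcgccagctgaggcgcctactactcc
Klf4: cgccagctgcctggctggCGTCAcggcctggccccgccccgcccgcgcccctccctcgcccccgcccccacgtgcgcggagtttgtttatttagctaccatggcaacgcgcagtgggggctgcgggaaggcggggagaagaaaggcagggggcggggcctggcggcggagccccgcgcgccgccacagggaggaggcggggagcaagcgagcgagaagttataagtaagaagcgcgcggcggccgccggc
Klf2: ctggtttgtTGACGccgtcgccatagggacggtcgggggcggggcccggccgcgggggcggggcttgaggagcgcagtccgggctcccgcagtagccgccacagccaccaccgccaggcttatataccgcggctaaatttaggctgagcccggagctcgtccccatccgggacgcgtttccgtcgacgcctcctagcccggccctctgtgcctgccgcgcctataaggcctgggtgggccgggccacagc
Nr4a1: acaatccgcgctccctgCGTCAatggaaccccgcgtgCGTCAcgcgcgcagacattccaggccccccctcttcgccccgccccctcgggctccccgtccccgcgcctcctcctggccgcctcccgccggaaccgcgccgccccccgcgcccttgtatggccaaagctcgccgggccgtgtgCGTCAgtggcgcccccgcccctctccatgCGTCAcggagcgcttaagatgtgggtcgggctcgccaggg

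In Fos the core began 129 and 66 bases before the start. In Klf4 it began 232 bases before the start, in Klf2 241 bases, and in Nr4a1 233, 213, 69 and 40 bases. Klf4 also held the E-box CACGTG, 182 bases before its start. Promoters were found for 27 of the 36 immediate early genes, and 18 of the 27 (66.7%) held TGACG on either strand, against 25% of the 15779 tested rows with a promoter and 19.8% of the 27025 genes in the table. The full element TGACGTCA, which contains the core, was in 3 of 27 (11.1%, against 2.44% of the tested rows). The serum response element was in 3 (11.1%, against 1.48%) and the E-box in 6 (22.2%, against 8.58%). The glucocorticoid response element, the heat shock element and the D-box TTANNTAA had 0 matches in the windows of these 27 genes, against 0.00634%, 0.501% and 4.9% of the tested rows. Among all rows with an unadjusted p under 0.05, TGACG was in 26.1% of those lower at 6 h and in 25.6% of those higher, both near the 25% of the tested rows. Both strands were searched, and where a gene had several windows a match in any of them counted. A match describes the letters of the window, not binding.

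Of 36 immediate early genes tested, 2 fell (Fos and Klf4, against 0.00723% of all rows) and 0 rose. At an unadjusted p under 0.05, 18 were lower at 6 h and 0 higher, against 2.47% and 11.8% of all rows. The median of the list lay 0.71 below the median row, and 0.69 below it after cyclic loess, where 19 were lower and 0 higher. In 17 of the 36 every 6 h library lay below both 15 min libraries, against 7.08% of 26407 rows with a value in all 5. In 1 member, Csrnp1, every 6 h library lay above. The list median stood 0.72 above saline at 15 min and 0.14 above it at 6 h.

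Among the other transcription factors, Klf2, which marks endothelium and quiescent T cells, had 1.14 and 0.52 at 15 min and -0.99, -0.37 and -0.59 at 6 h. Its difference of -1.48 (SE 0.21) was close to that of Fos and missed the threshold (limma adjusted p = 0.0938). Its 6 h libraries all lay above the saline libraries, which held -1.29, -1.45 and -1.36. Junb, an AP-1 partner of FOS, had 3.05 and 3.41 at 15 min and 1.95, 2.42 and 2.46 at 6 h (-0.96, SE 0.23, adjusted p = 0.189 by limma). Fosb had -1.72 and -1.24 at 15 min and -2.91, -1.92 and -2.54 at 6 h (-0.98, SE 0.26, adjusted p = 0.202). The NR4A nuclear receptors Nr4a1 and Nr4a2 had differences of -0.58 (SE 0.12) and -0.80 (SE 0.20), with all 6 h libraries below both 15 min libraries in each. Nr4a1 held -0.45 and -0.44 at 15 min and -1.13, -0.96 and -0.99 at 6 h. Atf3, a stress-induced factor, held -3.49 and -4.02 at 15 min and -4.75, -6.38 and -4.97 at 6 h. This was the largest difference of the list, at low signals (-1.61, SE 0.46, limma adjusted p = 0.218). Egr2 (-1.41, SE 0.44), Nr4a3 (-1.33, SE 0.49) and Fosl2 (-1.04, SE 0.40) also had every 6 h library below both 15 min libraries. Jun and Jund, further AP-1 subunits, had differences of -0.14 (SE 0.21) and 0.27 (SE 0.20), with overlapping groups.

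Egr1, a zinc finger factor of active neurons, did not separate the times. It held 2.03 and 2.63 at 15 min and 0.85, 2.19 and 1.33 at 6 h, so that 6 h replicate 2 lay between the 15 min libraries. Per1, both an activity-induced and a clock gene, had its highest value in the same library (0.40, 1.57 and 0.55 at 6 h, 0.81 and 1.14 at 15 min). In that library the summed linear signal of 38 excitatory synapse genes was 205, with 118 and 127 for replicates 1 and 3 at 6 h and with 122 and 167 at 15 min. What part this had in the Egr1 and Per1 values was not tested.

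Other early genes encode effectors rather than transcription factors. Cyr61, a secreted matrix protein, had -0.03 and -0.20 at 15 min and -1.12, -0.91 and -1.06 at 6 h (-0.92, SE 0.14, limma adjusted p = 0.107). Unlike Fos, it was low at 1 h as well, at -0.68, -1.08 and -0.99. Arc, a synaptic capsid-like protein, had 2.62 and 3.50 at 15 min and 1.96, 2.38 and 2.24 at 6 h (-0.87, SE 0.29, adjusted p = 0.248). Btg2 (-0.49, SE 0.12), an antiproliferative factor, and Zfp36 (-0.63, SE 0.18), which destabilizes AU-rich transcripts, had every 6 h library below both 15 min libraries. The MAP kinase phosphatases, which limit early gene signalling, had overlapping groups: Dusp1 differed by -0.27 (SE 0.16), Dusp5 by -0.07 (SE 0.14) and Dusp6 by 0.02 (SE 0.12). Among 24 delayed activity-regulated genes 0 were called. At an unadjusted p under 0.05, 3 were lower and 1 higher (12.5% and 4.17%, against 2.47% and 11.8% of all rows), and 5 and 0 with equal medians. Homer1, a postsynaptic scaffold, had -0.08 and 0.55 at 15 min and -0.38, -0.66 and -0.27 at 6 h. Nptx2, a secreted pentraxin of synapses, lay higher in each 6 h library (0.62, SE 0.28). Bdnf, a neurotrophin, differed by -0.14 (SE 0.20).

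Pdk4, whose product shuts off pyruvate dehydrogenase by phosphorylation and so spares glucose (chromosome 6, 5483351 to 5496278), had -0.17 and -0.02 at 15 min and -1.28, -1.40 and -0.88 at 6 h. All 6 h libraries lay below both 15 min libraries and beside saline (-1.44, -1.49 and -1.17). The difference of -1.09 (SE 0.17) missed the threshold (limma adjusted p = 0.107). Pdk4 belongs to the lists of FOXO targets, of glucocorticoid-responsive genes and of pyruvate dehydrogenase genes. Of 22 FOXO targets tested 0 were called, and the median lay 0.24 below the median row. At an unadjusted p under 0.05, 5 were lower, Pdk4 among them, and 0 higher (22.7% and 0%, against 2.47% and 11.8% of all rows). The other 4 were Bcl6 (-0.38), Klf15 (-0.27), Sesn1 (-0.25) and Ccng2 (-0.20), each with every 6 h library below both 15 min libraries.

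Among 24 glucocorticoid-responsive genes 0 were called, and the median lay 0.21 below the median row. At an unadjusted p under 0.05, 5 were lower and 2 higher (20.8% and 8.33%, against 2.47% and 11.8% of all rows). The counts were 7 and 1 after cyclic loess and 8 and 1 with equal medians. Zbtb16, a transcription factor induced by steroids, had -0.77 and -0.35 at 15 min and -2.03, -1.15 and -1.89 at 6 h (-1.13, SE 0.36, limma adjusted p = 0.237). Fkbp5, a cochaperone of the steroid receptor, held -0.90 and -0.84 at 15 min and -1.39, -1.10 and -1.41 at 6 h, below 15 min but above saline (-2.02, -2.25 and -1.65). Sgk1, a steroid-induced kinase, lay likewise between the levels, with 0.72 and 0.56 at 15 min, 0.28, 0.32 and 0.17 at 6 h and a saline mean of -0.49. Mt2, a metallothionein of the same list, lay on the other side. Its log2 signal was 4.36 and 4.03 at 15 min and 5.06, 4.88 and 5.01 at 6 h, above every saline library (4.61, 4.69 and 4.62). Its difference of 0.79 (SE 0.11), 1.72-fold, missed the threshold (limma adjusted p = 0.0675).

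Genes of the insulin pathway gave 0 calls. Of 34 genes of insulin and PI3 kinase signalling, 2 were lower and 2 higher at an unadjusted p under 0.05 (5.88% each, against 2.47% and 11.8% of all rows). After cyclic loess 5 were lower and 1 higher, where all rows gave 5.9% and 6.09%. With equal medians 11 were lower and 1 higher, where all rows gave 8.72% and 4.96%. Insr, the receptor, differed by 0.01 (SE 0.15), and Irs2, its adaptor, by -0.13 (SE 0.20), both with overlapping groups. Slc2a4, the insulin-responsive glucose transporter, had -2.85 and -3.62 at 15 min and -2.43, -2.55 and -2.39 at 6 h, all above (0.78, SE 0.23, limma adjusted p = 0.221). Slc2a1, the glucose transporter of brain vessels, had 1.16 and 1.24 at 15 min and 0.73, 1.16 and 0.60 at 6 h (-0.37, SE 0.16). Igf2, a growth factor made in meninges and choroid plexus, had 1.29 and 0.23 at 15 min and -0.73, -0.53 and 0.04 at 6 h, and is also in the meninges list.

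Of 22 cytosolic heat shock genes 0 were called. At an unadjusted p under 0.05, 3 were lower and 0 higher (13.6% and 0%, against 2.47% and 11.8% of all rows). Dnajb1, a cochaperone of HSP70, had 3.15 and 3.66 at 15 min and 2.65, 2.66 and 2.59 at 6 h, where saline held 2.72, 2.69 and 2.57 (-0.78, SE 0.22, limma adjusted p = 0.218). At 1 h it held 3.56, 4.12 and 3.23. Dnajb4 (-0.34) and Chordc1 (-0.53) were the other 2. The inducible HSP70 genes Hspa1a and Hspa1b spread widely at 15 min: Hspa1b held 1.54 in replicate 1 and 3.45 in replicate 3, and 1.98, 0.84 and 0.62 at 6 h. After cyclic loess 4 of the 22 genes were lower and 0 higher, where all rows gave 5.9% and 6.09%. With equal medians 8 were lower and 0 higher, where all rows gave 8.72% and 4.96%. The list median lay 0.36 below the median row, and 0.17 below it without 6 h replicate 2. Of 25 genes of the unfolded protein response 0 were called, and the median lay 0.14 below the median row. At an unadjusted p under 0.05, 4 were higher and 1 lower (16% and 4%, near the 11.8% and 2.47% of all rows). After cyclic loess 2 were higher and 2 lower, and with equal medians 2 were higher and 5 lower. The lower one was Pdia4, a disulfide isomerase (-0.31), and the 4 higher were Hyou1, a chaperone of the endoplasmic reticulum (0.27), and Chac1 (0.71), Trib3 (1.19) and Sesn2 (0.38), known targets of the stress factor ATF4.

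Of 21 hypoxia-responsive genes 0 were called. At an unadjusted p under 0.05, 2 were lower and 0 higher (9.52% and 0%, against 2.47% and 11.8% of all rows), and 5 and 0 with equal medians. The 2 in the deposited values were Slc2a1 and P4ha1, a collagen prolyl hydroxylase. P4ha1 had 0.30 and 0.60 at 15 min and -0.23, -0.65 and -0.34 at 6 h (-0.86, SE 0.18, limma adjusted p = 0.164).

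Of 19 inflammatory and NF-kappaB genes tested 0 were called, and the median lay 0.42 below the median row. At an unadjusted p under 0.05, 6 were lower and 1 higher (31.6% and 5.26%, against 2.47% and 11.8% of all rows). The counts were 9 and 1 after cyclic loess and with equal medians. Lcn2, a secreted acute phase protein, had -2.12 and -3.28 at 15 min and -5.46, -7.93 and -6.63 at 6 h, a difference of -3.98 (SE 1.02, limma adjusted p = 0.199). Lcn2 has low signals, and over the alternatives its difference shrank to -1.21. At 1 h it spread from -6.94 to -3.04. Icam1, an adhesion molecule of vessels, had -1.87 and -2.70 at 15 min and -3.38, -3.39 and -3.43 at 6 h. Cxcl1, a chemokine, had -2.27 and -3.91 at 15 min and -5.73 and -4.37 at 6 h, with no value in 6 h replicate 2, which the fit left out for this row. Ccl3, another chemokine, had -3.62 and -5.24 at 15 min and -2.50, -3.09 and -2.71 at 6 h (1.66, SE 0.52, adjusted p = 0.233). Lcn2, Icam1 and Cxcl1 were each higher in 15 min replicate 1 than in replicate 3, as were the choroid plexus markers, whose summed signal is given with the marker lists, and their part in these values was not tested.

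Beside Mt2, the genes with the smallest p on the higher side also missed the threshold. Fgf23, a phosphate-regulating hormone, had -5.81 and -5.35 at 15 min and -4.05, -3.96 and -3.92 at 6 h (1.60, SE 0.22, limma adjusted p = 0.0675). Srpk3, a kinase of splicing factors, had -1.09 and -0.90 at 15 min and -0.25, -0.27 and -0.01 at 6 h (0.82, SE 0.11). Spag4, a nuclear envelope protein, had -1.06 and -1.25 at 15 min and -0.47, -0.49 and -0.48 at 6 h (0.67, SE 0.09). Hsd3b4, of the steroid dehydrogenase family, had -6.22 and -6.11 at 15 min and -4.44, -4.37 and -4.38 at 6 h (1.77, SE 0.24), still below its saline mean of -3.33. Srpk3, Spag4 and Hsd3b4 shared the adjusted p of 0.0675.

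Setting missing values at the lowest value of the table called 24 rows, 16 higher at 6 h and 8 lower. Mt2 (0.0337), Fgf23 (0.0233), Srpk3 (0.0329), Hsd3b4 (0.0285) and Spag4 (0.0233) were among them by limma adjusted p, although each of the 5 has a value in all 11 libraries. Over all alternatives their adjusted p reached 0.55. Fgf23 and Hsd3b4 have low signals, and over the alternatives their differences went down to 0.433 and 0.373. Next in order came Cbs (0.64, SE 0.10), which makes cystathionine from homocysteine, Gstm4 (0.70, SE 0.11), a glutathione transferase, Cercam (0.86, SE 0.14), the pseudogene Kdm4dl (1.16, SE 0.19) and Ager (1.24, SE 0.20), the receptor for advanced glycation end products, all at an adjusted p of 0.114. Of the 100 rows with the smallest p, 84 were higher at 6 h and 16 lower, and 37 carried names of predicted or clone genes.

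**Figure D3:**
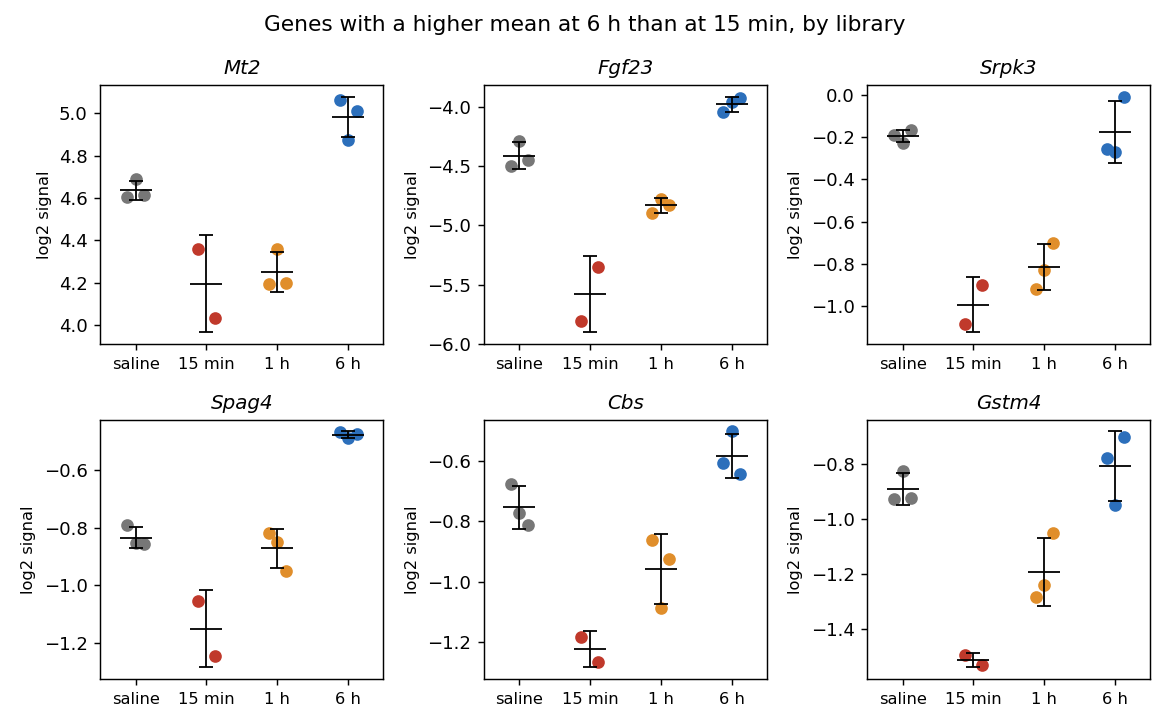
Log2 signal of Mt2, Fgf23, Srpk3, Spag4, Cbs and Gstm4 (vertical) in each library of the 4 groups (horizontal), with group means and error bars of 1 SD (n = 2 at 15 min, n = 3 in the other groups). In every panel all 6 h libraries lie above both 15 min libraries, none of the 6 genes passed the threshold, and in Mt2, Fgf23, Spag4 and Cbs the 6 h libraries also lie above every saline library.

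Further genes lower at 6 h were Slurp1, a secreted nicotinic receptor modulator (-1.32, SE 0.22), Lrg1, a glycoprotein of acute phase and vessels (-1.65, SE 0.32), Id1, an inhibitor of basic helix-loop-helix factors (-0.51, SE 0.10), and Banp, a DNA-binding factor (-0.58, SE 0.11). Lrg1 held -2.42 and -2.59 at 15 min and -4.26, -3.56 and -4.64 at 6 h, where saline had a mean of -4.37. Their limma adjusted p was 0.114 for Slurp1 and 0.152 for the others. Slurp1 and Lrg1 have low signals, and over the alternatives their differences shrank to -0.744 and -0.807. Rps23-ps1 (-0.76, SE 0.14) is a ribosomal pseudogene whose reads may be shared with near-identical copies, so its value is uncertain.

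Genes of lipid handling had 0 calls in each list. Among 17 genes of fatty acid uptake and activation 5 were higher and 0 lower at an unadjusted p under 0.05 (29.4%, against 11.8% of all rows), with a median 0.10 above the median row. Mfsd2a, the transporter of docosahexaenoic acid at the blood-brain barrier, had -0.31 and -0.12 at 15 min and 0.44, 0.33 and 0.23 at 6 h (0.55, SE 0.12, limma adjusted p = 0.167). The fatty acid transport proteins Slc27a4 (0.29), Slc27a1 (0.34) and Slc27a3 (0.32) and the acyl-CoA synthetase Acsl5 (0.27) were the other 4. After cyclic loess the list had 2 higher and 1 lower, where all rows gave 6.09% and 5.9%. With equal medians it had 1 higher and 1 lower, where all rows gave 4.96% and 8.72%. Among 25 cholesterol genes 6 were higher and 0 lower (24% and 0%, against 11.8% and 2.47% of all rows). The 6 included Mvk, mevalonate kinase (0.46, SE 0.14), and Lss, lanosterol synthase (0.27, SE 0.08). After cyclic loess 3 were higher and 1 lower, and with equal medians 1 was higher and 2 lower.

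Among 27 genes of fatty acid oxidation 4 were higher and 0 lower at an unadjusted p under 0.05 (14.8% and 0%, against 11.8% and 2.47% of all rows). After cyclic loess 0 were either, and with equal medians 1 was higher and 1 lower. Ehhadh, a peroxisomal enzyme, had -3.10 and -3.26 at 15 min and -2.53, -2.94 and -2.57 at 6 h (0.50, SE 0.17, limma adjusted p = 0.249). Cpt1a, the carnitine shuttle enzyme that sets the rate of oxidation, differed by -0.02 (SE 0.15). In fatty acid synthesis, 3 of 20 were higher and 1 lower (15% and 5%, against 11.8% and 2.47% of all rows). Mcat, which loads malonyl groups in mitochondria, had -0.16 and -0.35 at 15 min and 0.22, 0.07 and 0.26 at 6 h (0.44, SE 0.10, limma adjusted p = 0.168). Elovl1 and Acly were the other 2 higher, and Elovl6 was lower (-0.30). Fasn, fatty acid synthase, differed by 0.09 (SE 0.20), a direction that turned with equal medians. Angptl4, an inhibitor of lipoprotein lipase, had -2.04 and -2.54 at 15 min and -1.37, -2.01 and -1.44 at 6 h (0.68, SE 0.34). Among 20 glycogen genes 5 were higher and 2 lower (25% and 10%, against 11.8% and 2.47% of all rows). The counts were 3 and 2 after cyclic loess and 1 and 2 with equal medians. The 5 were led by Pgm2 (0.32, SE 0.08) and the laforin gene Epm2a (0.46, SE 0.12), and the lower ones included Ppp1r3c, which targets a phosphatase to glycogen (-0.35, SE 0.11).

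Of 75 cytosolic ribosomal protein genes 13 were higher and 0 lower at an unadjusted p under 0.05 (17.3% and 0%, against 11.8% and 2.47% of all rows). Their median lay 0.02 above the median row, and 0.10 above it after cyclic loess. After cyclic loess 10 were higher and 0 lower, where all rows gave 6.09% and 5.9%. With equal medians 1 was higher and 3 lower, where all rows gave 4.96% and 8.72%. Of 71 nuclear genes of oxidative phosphorylation 7 (9.86%) were higher and 0 lower, with a median 0.03 below the median row, and after cyclic loess 1 was higher. Of 22 clock genes 0 were higher and 2 lower (0% and 9.09%, against 11.8% and 2.47% of all rows). The 2 were Nr1d2 (-0.30) and Nfil3 (-0.39), while Arntl differed by 0.08 (SE 0.13) and Dbp by 0.19 (SE 0.15). Arntl, a core clock activator, turned direction after cyclic loess and with equal medians.

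**Figure D4:**
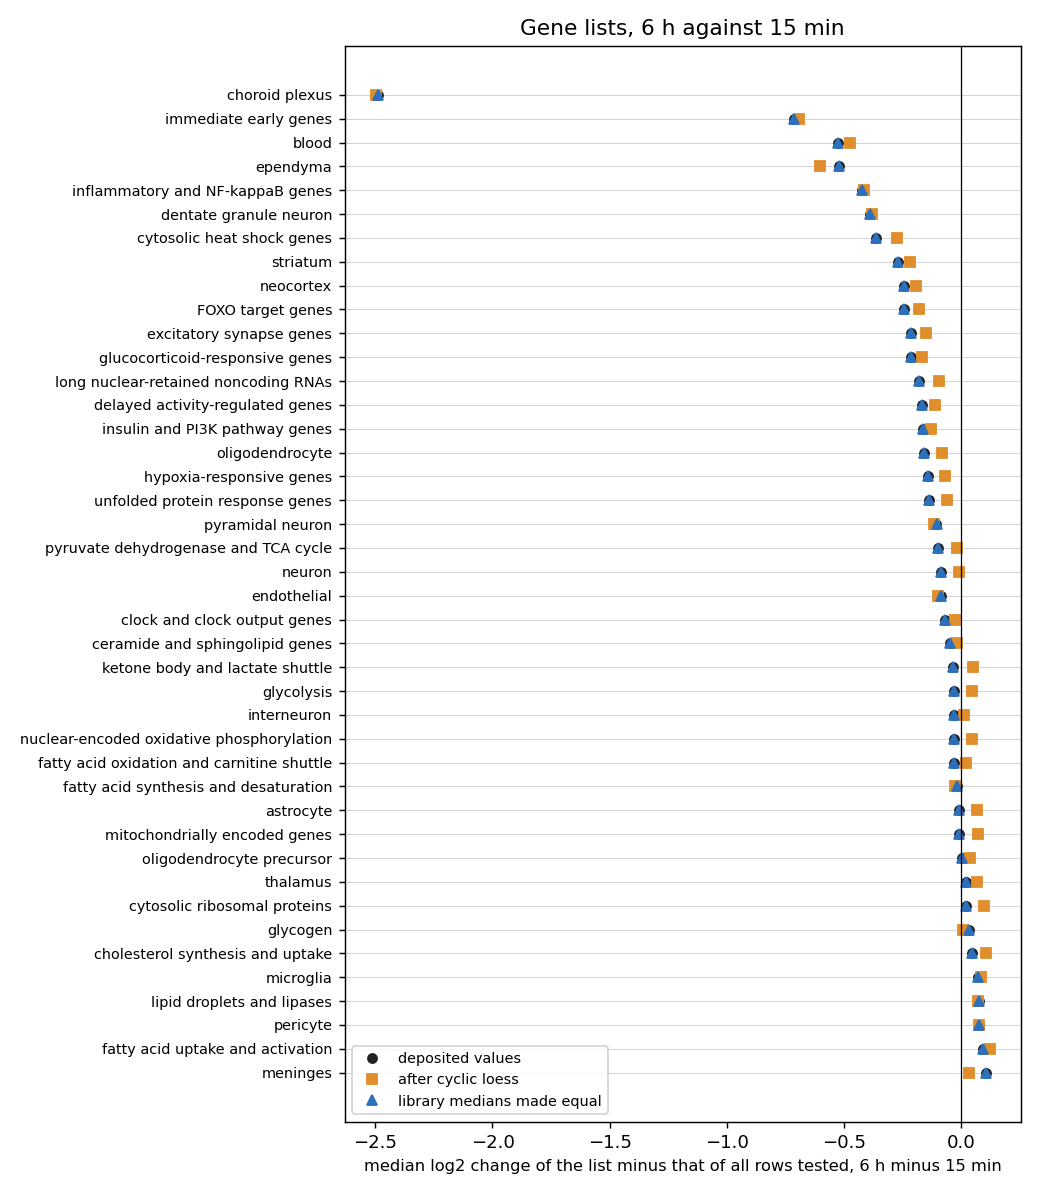
Median log2 difference of each gene list minus that of all rows tested (horizontal), 6 h minus 15 min, for 42 lists (vertical). The scales are the deposited values, cyclic loess, and equal medians of the rows with a value in every library. The choroid plexus list stands at -2.49, the immediate early genes follow at -0.71, and most other lists lie within 0.25 of the median row.

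Of 13 choroid plexus markers tested 0 were called. At an unadjusted p under 0.05, 9 were lower and 0 higher (69.2% and 0%, against 2.47% and 11.8% of all rows). All 13 had a lower mean at 6 h, and the median lay 2.49 below the median row. Ttr, transthyretin, the defining product of this epithelium, had 6.98 and 4.71 at 15 min and 2.31, -0.73 and 4.44 at 6 h. The summed linear signal of the list was 139 in 15 min replicate 1 and 29.9 in replicate 3, and 7.16, 1.94 and 25.6 at 6 h. Folr1, a folate receptor of the same epithelium, had -0.22 and -2.23 at 15 min and -4.13, -5.88 and -2.26 at 6 h, and Kl, the FGF23 coreceptor klotho, had 0.59 and -1.19 at 15 min and -3.11, -3.45 and -1.48 at 6 h. With saline the summed signal was 42.6 to 64.5 and at 1 h 4.18 to 92.5, so it varied within groups as well as between them. The median lay 1.54 below the median row without 15 min replicate 1 and 3.35 below it without 15 min replicate 3. In such tissue samples, fewer cells of a type and less RNA per cell cannot be told apart. The part of choroid plexus RNA in the other differences was not tested.

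The ependyma list had 3 lower and 2 higher of 15 at an unadjusted p under 0.05 (20% and 13.3%, against 2.47% and 11.8% of all rows). It had 8 and 0 after cyclic loess and 7 and 1 with equal medians. Its summed signal was 7.87 and 5.51 at 15 min and 4.64 to 6.44 at 6 h. The blood list had 0 of 10 in either direction and a summed signal of 132 and 66.0 at 15 min and 64.7 to 81.5 at 6 h. Of 16 astrocyte markers 2 were higher (12.5%, near the 11.8% of all rows) and 0 lower, and the median lay 0.007 below the median row. After cyclic loess, and likewise with equal medians, 2 were higher and 1 lower. Fgfr3, a growth factor receptor, had 2.23 and 2.30 at 15 min and 2.59, 2.88 and 2.70 at 6 h (0.46, SE 0.09, limma adjusted p = 0.152). Aldh1l1 had -0.72 and -0.89 at 15 min and -0.38, -0.46 and -0.43 at 6 h. Of 14 endothelial markers 2 were lower and 0 higher (14.3% and 0%, against 2.47% and 11.8% of all rows). The 2 were Vwf (-0.85, SE 0.23) and Flt1 (-0.43, SE 0.18). In the whole list 7 had a higher mean at 6 h and 7 a lower one. The summed signal was 12.74 and 10.34 at 15 min and 12.66 to 15.97 at 6 h. Klf2 and Klf4 are also expressed in vessels, and the part of vessel content in their differences was not tested. Of 14 microglial markers 3 were higher and 0 lower (21.4% and 0%, against 11.8% and 2.47% of all rows). After cyclic loess 2 were higher and 0 lower, and with equal medians 0 passed in either direction. The summed signal of the microglial markers was 33.6 and 33.9 at 15 min and 36.4 to 57.7 at 6 h. Of 12 pericyte markers 1 was higher (8.33%, against 11.8% of all rows) and 0 lower. It was Pdgfrb (0.50, SE 0.14), which had -2.09 and -2.21 at 15 min and -1.77, -1.57 and -1.61 at 6 h. All 12 dentate granule and all 13 pyramidal neuron markers had a value in each of the 5 libraries, which are labelled as hippocampus. Of the dentate granule markers 9 of 12 had a lower mean at 6 h, and the median lay 0.39 below the median row. In 4 every 6 h library lay below both 15 min libraries, against 7.08% of rows with a value in all 5. At an unadjusted p under 0.05, 2 were lower and 0 higher (16.7% and 0%, against 2.47% and 11.8% of all rows). After cyclic loess 4 were lower and 0 higher, where all rows gave 5.9% and 6.09%. With equal medians 4 were lower and 0 higher, where all rows gave 8.72% and 4.96%. The summed signal of the dentate granule markers was 14.6 and 11.6 at 15 min and 11.2 to 12.1 at 6 h. Its part in the falls of the early genes was not tested. Of the pyramidal neuron markers 0 were lower or higher in the deposited values. Of 38 excitatory synapse genes 3 were lower and 1 higher (7.89% and 2.63%, against 2.47% and 11.8% of all rows). After cyclic loess 5 were lower and 1 higher, where all rows gave 5.9% and 6.09%. With equal medians 10 were lower and 0 higher, where all rows gave 8.72% and 4.96%. The median, 0.21 below the median row, lay 0.02 above it without 15 min replicate 3. Snap25, of the vesicle fusion complex, had 3.75 and 3.96 at 15 min and 3.49, 3.33 and 3.43 at 6 h (-0.44, SE 0.09, adjusted p = 0.166).

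**Figure D5:**
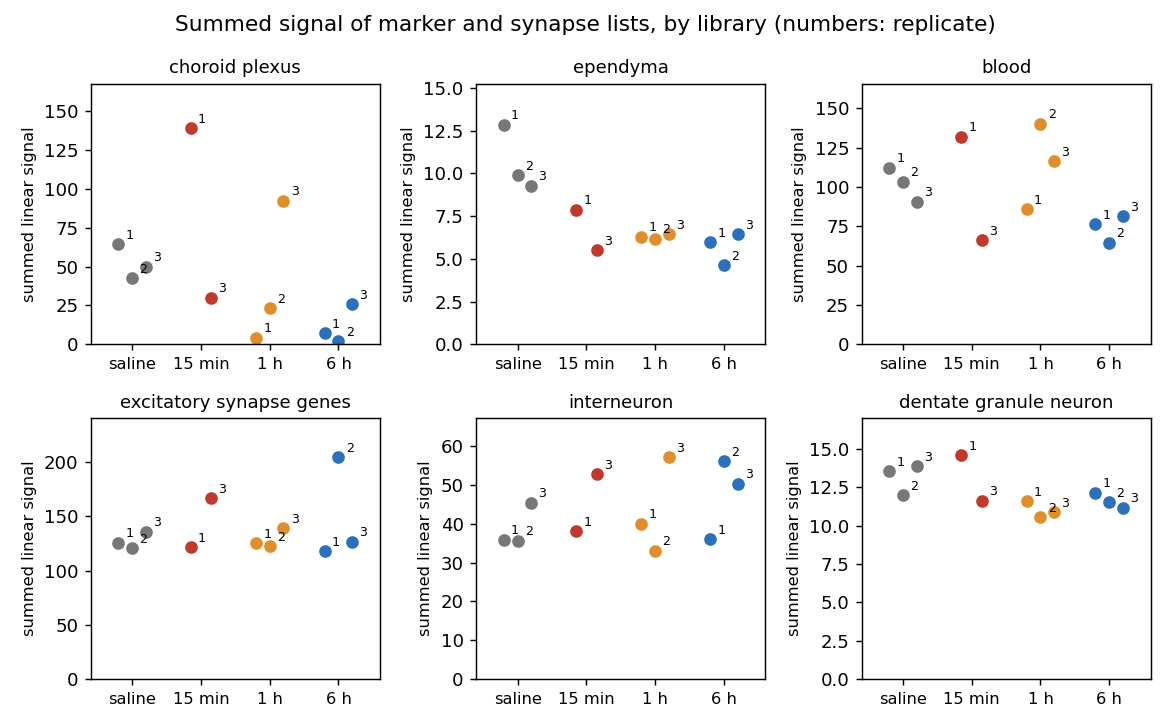
Summed linear signal (vertical, from 0) of 6 lists in each library of the 4 groups (horizontal), with the replicate number beside each point. Choroid plexus is highest in 15 min replicate 1 (139) and lowest in 6 h replicate 2 (1.94), and that 6 h library has the highest excitatory synapse sum (205).

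The saline level was compared with both times as a description, without a test. Of the 3939 rows with an unadjusted p under 0.05, the saline mean was nearer to the 6 h mean in 3094 (78.5%), against 60.1% of all rows tested. The share was 69.4% after cyclic loess and 75% with equal medians, where all rows gave 56.1% and 58.8%. It was 83.6% of the rows higher at 6 h and 54.4% of those lower in the deposited values, 75.8% and 62.6% after cyclic loess, and 75.6% and 74.6% with equal medians. The 1 h mean was nearer to 15 min in 66.7% of the 3939 rows, against 56.4% of all rows. Column names end in a number whose meaning is not stated. Saline has 1 to 3 and 6 h has 4 to 6. The libraries at 15 min have 7 and 9, and 1 h has 10 to 12. The nearness of 6 h to saline and of 1 h to 15 min cannot be told apart from that order.

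Of protein-coding genes spanning 2 to 10 kb, 17.9% were higher and 1.77% lower at 6 h at an unadjusted p under 0.05, and of those over 100 kb 3.45% were higher and 4.22% lower. After cyclic loess the shares were 11.5% and 3.3% for the first class and 0.763% and 13.6% for the other. The row of 18S ribosomal RNA, Rn18s-rs5, held 9.67 and 10.49 at 15 min and 12.19, 11.65 and 11.04 at 6 h (1.54, SE 0.73, limma adjusted p = 0.375), with saline at 13.05 to 16.00. Within groups, deviations of Fos correlated with those of the 18S row at -0.07 over the 11 libraries, and Klf4 was among 1238 rows above 0.5 that 1 alternative left out. The number of genes with a value was 32037 and 32427 at 15 min and 32703 to 33653 at 6 h. Of the rows in the table, 332 had a value in all 3 libraries at 6 h and in neither at 15 min, and 198 had one in both at 15 min and in none at 6 h. The part of 18S content, span and detection in the differences was not tested.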

How the data were processed

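Hippocampal RNA was sequenced in 11 libraries, of which 3 at 6 h and 2 at 15 min after insulin form the comparison. The authors deposited 1 table of log2 signals for 46202 gene symbols, and per the submitters' processing notes bcl2fastq, Partek 6.7 and the build GRCm38 were used. For aligner and counting the sources used here give nothing. Each library has the same minimum, median and maximum, as in quantile-normalized values, and the base of the logarithm was taken as 2 from the values. Read depth is unknown, so no counting error can be given. A question mark in place of a value was read as missing.

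The lowest 40% of rows by mean were dropped. Of the 27721 that remained, 1950 lacked a value in at least 1 library and 74 could not be tested. limma 3.58.1 in R 4.3.3 was fitted to all 11 libraries in 4 groups with a mean-variance trend. The contrast of 6 h minus 15 min was two-sided and adjusted by the Benjamini-Hochberg method at 0.05. With 2 libraries against 3, an exact permutation test of single values cannot go below a two-sided p of 0.2, so none was run. The tests were checked on simulated data.

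Gene coordinates and promoters are those of RefSeq for GRCm38.p6, where 37292 symbols were found. Named genes are up to 12 calls in each direction, or else those with the smallest p up to 10, predicted and clone names passed over, then the 2 members with the smallest p in each of 42 gene lists and a fixed panel. Other members of the lists that the text names were chosen after their values were seen: Acly, Acsl5, Atf3, Btg2, Ccng2, Chordc1, Csrnp1, Cxcl1, Dusp5, Dusp6, Egr2, Elovl6, Folr1, Fosl2, Hspa1a, Hspa1b, Icam1, Jun, Jund, Kl, Klf15, Nptx2, Nr4a3, Pdia4, Ppp1r3c, Sesn1, Sesn2, Slc27a1, Slc27a3, Trib3, Ttr and Zfp36. A gene of the panel is not reported here. Of the columns with per-sample values, 0 were unused. The genes, lists and comparison were chosen with earlier results of these data known. A list is described by its counts and its median beside all rows.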

Additional observations from a re-analysis of the deposited data

How the results depend on the processing

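The count of called genes stayed at 2, Fos and Klf4, after cyclic loess, with equal medians, without a filter, with the lowest 60% left out, with complete rows, with robust shrinkage and with a log2 difference of at least 1, and was 3 with an offset of 0.1. It was 24 with missing values set at the lowest value, 6 without the trend and 1 (Fos) without the 1238 rows that moved with 18S, among them Klf4. It was 0 with only the 2 groups compared (2472 rows at an unadjusted p under 0.05) and 0 with only the insulin libraries (3239). Leaving out each library in turn gave 0 to 3, with 0 without saline replicate 1 or 3 or any 6 h replicate, 1 without 15 min replicate 3 or 1 h replicate 2, and 3 without 15 min replicate 1, none of them Fos or Klf4. The cause was not tested.

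With the replicate number as a block the count was 0 (4277 rows at an unadjusted p under 0.05), and Cpt1a stood at 0.014 and Insr at -0.003. The limma adjusted p with this block was 0.0648 for Fos and 0.132 for Klf4. Deviations of libraries of the same number correlated at -0.06 to 0.24, both over the 2 pairs of 15 min and 6 h and over all 15 pairs. Libraries of other numbers gave -0.25 to 0.25 over 4 and over 30 pairs. These overlapping ranges do not decide whether libraries should be paired. With 2 libraries at 15 min the deviations of one mirror those of the other, so this check is weak, and the labels name nothing shared by a number.

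Of 118 genes followed, 108 kept their direction in every setting and 10 did not. After cyclic loess Cpt2 stood at -0.02, Arntl at -0.06 and Insr at -0.071. With equal medians Acadvl stood at -0.035, Hadha at -0.063, Cpt2 at -0.044, Arntl at -0.062, Fasn at -0.051 and Insr at -0.125. Over runs that left out 1 library, values ran from -0.033 to 0.185 for Arntl, -0.145 to 0.265 for Fasn, -0.183 to 0.144 for Cpt1a, -0.135 to 0.161 for Insr, -0.048 to 0.253 for Acadvl, -0.022 to 0.172 for Hadha, -0.379 to 0.03 for Irs2, -0.092 to 0.279 for Cpt2, -0.495 to 0.091 for Per1 and -0.259 to 0.083 for Bdnf. The share of rows whose saline mean lay nearer to 6 h was 79.7% with group medians.

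Depth is unknown, and a sample of 2 libraries at 15 min limits what can be called.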
